A study of Mus musculus with 8 samples.

Results

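Mouse chromosome 19 was followed gene by gene in Ba/F3 cells transformed with U2AF35(S34F) and in parental Ba/F3 cells. The members were the genes of the deposited count table that lie on chromosome 19 of GRCm38 and have a mean of at least 1 CPM, the count of a gene scaled to library size, over the 8 libraries. This gave 445 of the 1090 chromosome 19 genes in the table, and 445 of the 14000 genes with an assigned chromosome that reach the same level. The members were chosen by their position and mean level, and chromosome 19 itself was selected on its lower level in the transformed cells, which was already known from these libraries. The size of that shift is therefore a description and carries no test.

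RNA selected for polyA tails was sequenced from 5 transformed libraries (transformed 4 to 8) and 3 parental libraries (parental 1 to 3). Ba/F3 is an immortalised mouse pro-B cell line of C3H background, and all 8 libraries share it. The transformed group is labelled as transformed with U2AF35 carrying the S34F substitution, and the parental group as wild type for U2AF35. The promoter that drove the introduced factor, the number of clones and whether libraries came from separate cultures are not stated by any source used here. The p-values below therefore measure only the spread between these libraries, which may be technical. U2AF35, the product of U2af1, is the small subunit of the U2 auxiliary factor. It contacts the AG at the end of an intron and helps to define the 3′ splice site.

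Chromosome 19 is the smallest mouse autosome and is gene-dense near its centromeric end. Its genes have unrelated roles: Jak2 is a tyrosine kinase of cytokine receptors such as the interleukin-3 receptor, Kif11 a motor of the mitotic spindle, Fth1 the heavy chain of the iron store ferritin, and Neat1 a long noncoding RNA that scaffolds paraspeckles. A median over many neighbouring genes is little moved by the regulation of any 1 of them. Some of the annotated loci are processed pseudogenes, which arise when a spliced messenger RNA is copied back into DNA and inserted at another place in the genome.

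A set of 35 members had a transcript that matches a transcript from another chromosome at 95% identity or more over at least 80% of its length. They are shown because the median of such members did not lie below the parental level, although 10 of the 35 had a negative mean difference. Printed here are 3 pairs, each a 90-base stretch within the coding part of the copy, from the GENCODE M21 transcripts, 5′ to 3′. Capitals mark bases that differ between the 2 sequences of a pair. Gm10053 (chr19:24875686-24876631, plus strand) and Cycs on chromosome 6, the gene of cytochrome c, do not differ in this stretch.
Gm10053: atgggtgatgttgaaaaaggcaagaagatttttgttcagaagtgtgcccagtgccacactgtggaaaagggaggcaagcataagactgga
Cycs: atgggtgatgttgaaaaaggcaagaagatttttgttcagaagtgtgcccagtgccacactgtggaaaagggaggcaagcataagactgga
Pcna-ps2 (chr19:9283380-9284160, plus strand) and Pcna on chromosome 2, the gene of the sliding clamp of DNA polymerases, differ at 2 of the 90 bases.
Pcna-ps2: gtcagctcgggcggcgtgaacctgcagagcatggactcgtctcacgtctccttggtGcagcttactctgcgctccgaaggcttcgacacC
Pcna: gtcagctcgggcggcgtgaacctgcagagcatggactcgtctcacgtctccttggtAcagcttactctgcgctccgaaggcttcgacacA
Rpl13a-ps1 (chr19:50030124-50030735, minus strand) and the ribosomal protein gene Rpl13a on chromosome 7 differ at 8 of the 90 bases.
Rpl13a-ps1: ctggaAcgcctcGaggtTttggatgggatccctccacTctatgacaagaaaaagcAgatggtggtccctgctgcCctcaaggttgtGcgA
Rpl13a: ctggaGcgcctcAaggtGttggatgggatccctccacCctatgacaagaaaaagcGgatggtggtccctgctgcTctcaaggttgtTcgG
Over their whole aligned lengths the identities were 99.9% for Gm10053, 99.2% for Pcna-ps2 and 95.3% for Rpl13a-ps1. Reads from stretches without a difference cannot be assigned to 1 of the 2 loci, and the authors' handling of reads that map to several places is not stated by any source used here.

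The smallest library was transformed 7, with 36122062 counts, and the largest parental 1, with 50305573. Each of the 445 members entered the fit over all genes. Transformed 4 and transformed 7 stood apart from the other transformed libraries. In transformed 4 the median of chromosome 14 genes was 0.31 above the parental mean and that of chromosome 18 was 0.26 below it (log2 CPM). In transformed 7 the difference from the parental mean was correlated with transcript GC content across the 13555 genes of the other chromosomes (Spearman's rho -0.26). These genes share the library and its base composition. Weaker correlations were present in other libraries. The rho was 0.062, -0.016, -0.15 and -0.14 in transformed 4, 5, 6 and 8, and -0.039, 0.13 and -0.10 in parental 1 to 3. Of the 12 pro-B markers 5 reached 1 CPM, among them Cd79a, Ptprc and Csf2rb. Ebf1, Pax5, Vpreb1, Igll1, Rag1 and Kit were at or near 0 in every library. None of the 4 T cell and none of the 4 fibroblast markers reached that level, whereas Adgre1 and Mpo did. U2af1 had 157, 144, 128, 92.0 and 132 CPM in transformed 4 to 8, against 85.3, 98.2 and 91.6 CPM in parental 1 to 3. A gene count does not separate the S34F form from the wild type, so it does not check the labels.

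In every transformed library the chromosome 19 members lay below the parental level. The median over members of log2 CPM minus the mean of the 3 parental libraries was -0.29 in transformed 4, -0.31 in transformed 5, -0.33 in transformed 6, -0.41 in transformed 7 and -0.32 in transformed 8. It was -0.023 in parental 1, 0.0086 in parental 2 and 0.0085 in parental 3. The 5 transformed medians did not overlap the 3 parental ones. As ratios they were 0.816, 0.808, 0.796, 0.752 and 0.801 in transformed 4 to 8, against 0.984, 1.01 and 1.01 in parental 1 to 3. The shift was thus about as large in each transformed library, while the median over all 14000 genes stayed between -0.018 and 0.010 in them. The members took 3.87 ± 0.0759% of all counts in the transformed libraries (SD, n = 5) and 4.73 ± 0.0294% in the parental ones (SD, n = 3). In bulk RNA, fewer cells with a transcript and less of it per cell cannot be told apart.

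The members below the parental mean were 82.0%, 80.2%, 81.1%, 75.1% and 80.9% of the 445 in transformed 4 to 8, against 60.4%, 44.7% and 42.9% in parental 1 to 3. Transformed 7 had the lowest median and yet the smallest share below, and its members were spread more widely, with quartiles of -0.80 and -0.0012 against -0.57 and -0.070 in transformed 8. The difference also ran with GC content within chromosome 19 in transformed 7 (Spearman's rho -0.22 across 445 members). It was weaker in the others, with rho of 0.046, -0.013, -0.13 and -0.14 in transformed 4, 5, 6 and 8. In parental 1 to 3 it was -0.023, 0.12 and -0.11. With the GC trend of the other chromosomes removed, the medians of transformed 4 to 8 were -0.32, -0.30, -0.31, -0.34 and -0.30, a narrower range than before. In lane 6 alone, which holds transformed 5 and 8 and parental 1 and 3, the median over members of the mean difference was -0.29. In lane 7 alone, with transformed 4, 6 and 7 and parental 2, it was -0.35, as it was with all 8 libraries.

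**Figure D1:**
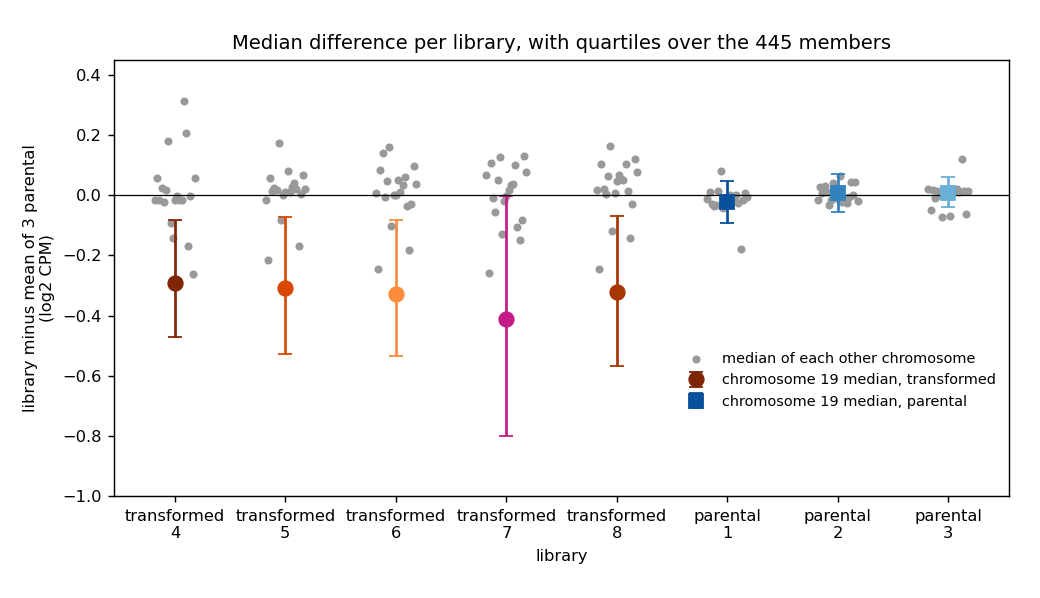
Median over the 445 chromosome 19 members of log2 CPM minus the mean of the 3 parental libraries, by library. Bars run between the quartiles over members and each grey point is the same median for 1 of the other 19 chromosomes; the chromosome 19 medians of the 5 transformed libraries sit between -0.41 and -0.29, below every grey point of their library.

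Chromosome 19 had the lowest median of the 20 chromosomes in each of the 5 transformed libraries. The next lowest chromosome was 18 in transformed 4, at -0.26, and chromosome 2 in the others, at -0.21 in transformed 5, -0.24 in transformed 6, -0.26 in transformed 7 and -0.25 in transformed 8. Chromosome 2 did not lie low in every transformed library, with a median of 0.058 in transformed 4. Chromosome 16 lay between -0.18 and -0.14 in the transformed libraries, but it was also at -0.18 in parental 1. Chromosome 8 was the other chromosome whose 5 transformed medians, -0.13 to -0.082, were all below the 3 parental ones, -0.042 to 0.040. Chromosomes were compared by their medians only, without a test.

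Over the members, the mean difference between transformed and parental libraries had a median of -0.35 and quartiles of -0.54 and -0.089. Over the 13555 genes of the other chromosomes the median was 0.011 and the quartiles were -0.19 and 0.19. The middle part of the chromosome 19 distribution was thus displaced as a whole. Of the members, 25 were lower at least 2-fold and 3 were higher at least 2-fold. In 255 members (57.3%) all 5 transformed libraries lay below the parental mean, where 18.1% of all 14000 genes did so. In 208 members (46.7%) all 5 lay below all 3 parental libraries, against 10.4% of all genes. In 6 members (1.35%) all 5 lay above all 3 parental libraries, against 8.86% of all genes. The numbers of members with 0, 1, 2, 3, 4 and 5 transformed libraries below the parental mean were 16, 37, 24, 35, 78 and 255.

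In the edgeR quasi-likelihood test with Benjamini-Hochberg adjustment over all 17733 genes tested, 73 members (16.4%) fell and 2 (0.449%) rose. Over all genes tested, which unlike the members include genes below 1 CPM, 2.1% fell and 0.908% rose. The median fitted log2 fold change was -0.34 over the members, a fold of 0.791, and 0.017 over all genes. All 73 members that fell had each of the 5 transformed libraries below each of the 3 parental ones. The count rests on single libraries: it was 168 without transformed 4, 160 without transformed 7, 10 without transformed 5, 6 without transformed 6 and 10 without transformed 8. It was 9 without parental 1 and 1 without parental 2 or without parental 3. The median shift over members stayed between -0.36 and -0.33 through the same omissions.

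The shift ran along nearly all of the chromosome, with the exceptions given below by block. The first member by start, Ighmbp2, a helicase gene at chr19:3259076-3283017, had 31.7, 37.0, 38.5, 33.7 and 36.3 CPM in transformed 4 to 8, against 37.4, 38.9 and 37.95 CPM in the parental libraries. The last, Gm7102 at chr19:61174686-61176309, had 2.81, 2.90, 2.44, 1.77 and 2.33 CPM in transformed 4 to 8, against 2.79, 2.96 and 2.63 CPM in the parental libraries. Neither end gene passed the test. The median over the first 10 members was -0.34, -0.16, -0.18, -0.25 and -0.22 in transformed 4 to 8, against -0.0071, 0.031 and 0.018 in parental 1 to 3. Over the last 10 members it was -0.35, -0.34, -0.21, -0.098 and -0.31 in transformed 4 to 8, against 0.026, 0.0064 and -0.066 in parental 1 to 3. Both ends of the covered stretch therefore had a lower median in each transformed library than in any parental one. Over the last 10 members transformed 7, at -0.098, was close to parental 3, at -0.066. Each parental library is part of the mean it is set against, which makes its own difference smaller. Transformed 7 is thus not clearly apart there.

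Gene starts were grouped into 13 consecutive blocks of 5 Mb, 5 of which held fewer than 20 members. In 12 of the 13 blocks the median was below 0 in all 5 transformed libraries, and in 11 all 5 transformed medians were below all 3 parental ones. The block from 5 to 10 Mb, with 129 members from Slc29a2 to Fth1, had the lowest median of the mean difference, -0.42. Its medians were -0.28, -0.35, -0.42, -0.56 and -0.38 in transformed 4 to 8, against -0.031, 0.0073 and 0.013 in parental 1 to 3. Transformed 7 was the lowest library there, and the median GC content of the members' transcripts was 55.3%. With the GC trend removed its value was -0.38.

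The shift was smallest in the block from 25 to 30 Mb, with 22 members from Smarca2 to Ranbp6, where the median was -0.038. Its medians were -0.015, -0.20, -0.16, -0.031 and -0.18 in transformed 4 to 8, against 0.031, -0.017 and -0.023 in parental 1 to 3. Transformed 4 thus overlapped the parental libraries in this block, and transformed 7 came near them. Near-identical copies were carried by 4 of these 22 members, and the median of the other 18 was -0.31. The block from 35 to 40 Mb, with 17 members from Rpp30 to Hells, was the other exception and is thinly filled. It had medians of -0.33, -0.13, -0.045, 0.022 and -0.076 in transformed 4 to 8, against -0.068, 0.022 and 0.011 in parental 1 to 3. Among its 16 members without a copy the median was -0.15, the highest of any block once members with a copy were left out.

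With the GC trend removed, all 13 blocks had a median below 0 in each transformed library. Medians were also below 0 in all 5 libraries in the 7 blocks of 10 Mb and in the 11 blocks of at least 40 consecutive members. A running median over 31 consecutive members, which gives 415 windows, was below 0 in 412 windows in transformed 4, 412 in transformed 5, 415 in transformed 6, 407 in transformed 7 and 415 in transformed 8. Start position had a weak correlation with the mean difference (Spearman's rho 0.14 across 445 members, which share their libraries). In each of the 10 Mb blocks all 5 transformed medians were also below all 3 parental ones.

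**Figure D2:**
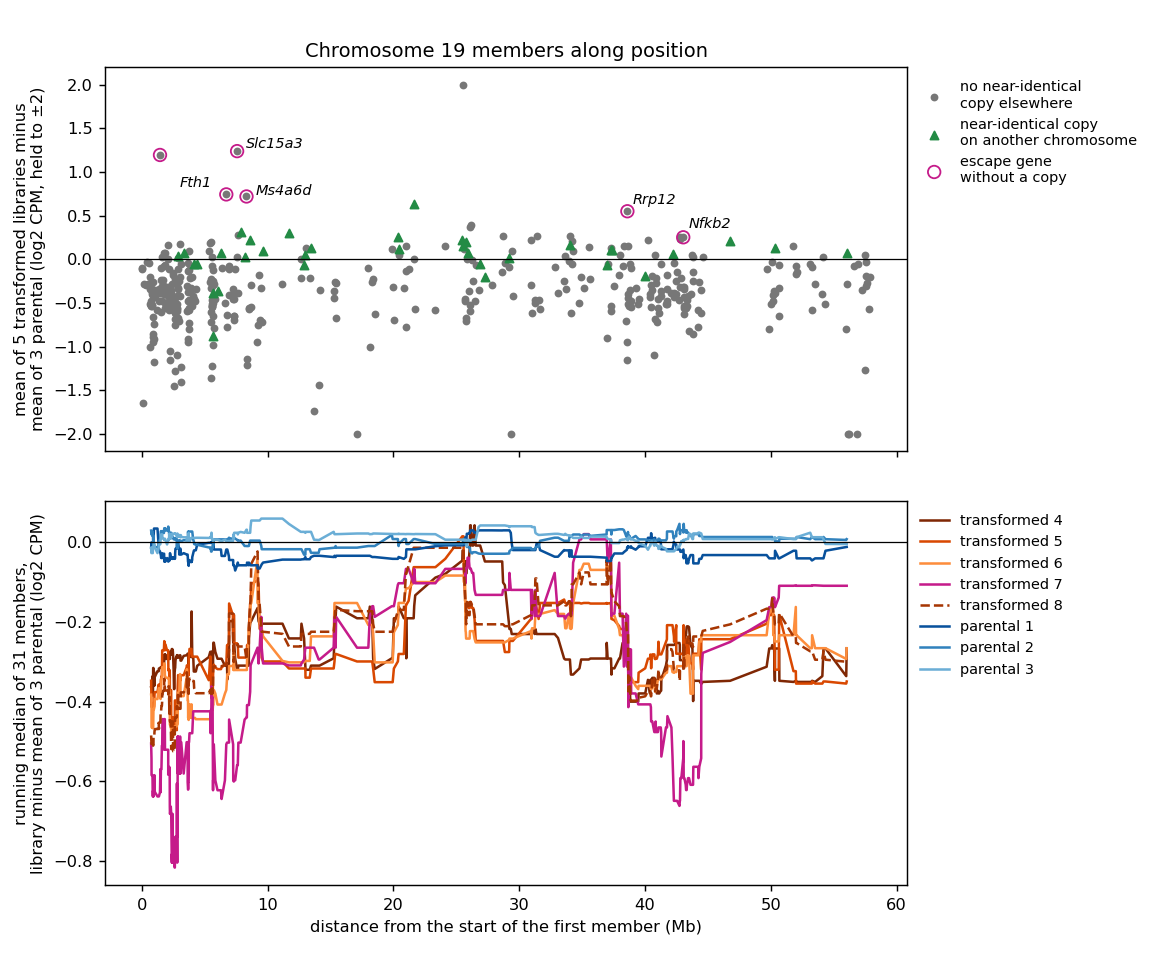
Upper panel: mean difference of each member (5 transformed minus 3 parental, log2 CPM, 6 members held at ±2) against distance in Mb from the start of the first member, with the 35 members that have a near-identical copy as triangles. Lower panel: running median over 31 members for each library; the 5 transformed curves run below the 3 parental ones over nearly all of the chromosome and come closest to 0 near 25 Mb, and in transformed 7 near 35 Mb as well.

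The list of cell division and DNA maintenance had 24 members, of which 10 fell, 0 rose and 19 had all 5 transformed libraries below the parental mean. Of all members 16.4% fell and 57.3% had all 5 transformed libraries below the parental mean. Of all genes tested 2.1% fell, and all 5 lay below in 18.1% of the 14000 genes. The median fitted log2 fold change was -0.43 in this list and -0.34 over all members. Pold4, an accessory subunit of DNA polymerase delta (chr19:4231899-4233634), had 22.2, 18.3, 20.02, 22.04 and 20.1 CPM in transformed 4 to 8, against 44.0, 35.5 and 37.0 CPM in parental 1 to 3. The groups did not overlap, and the fitted log2 fold change was -0.92 (SE 0.11, edgeR adjusted p 0.00758). It passed in each of the 12 alternative fits in which single genes were followed, with a highest edgeR adjusted p of 0.04998, just under the threshold. Kif11 (chr19:37376403-37421859) had 185, 180, 181, 152 and 180 CPM in transformed 4 to 8, against 277, 259 and 272 CPM in the parental libraries, with a log2 fold change of -0.62 (SE 0.09, edgeR adjusted p 0.0128). The other 8 that fell were Kif20b and Cep55, which act in cytokinesis, Incenp of the chromosomal passenger complex, the checkpoint clamp gene Rad9a, Mms19, Cdk2ap2, Slf2 and Mxi1, whose product is a partner of Max. These 8 are named because they passed the test.

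Of 26 members in the list of splicing and RNA processing, 4 fell, 0 rose and 16 had all 5 transformed libraries below the parental mean. Both counts were near the shares over all members, 16.4% and 57.3%. The median log2 fold change was -0.28. Neat1 (chr19:5824708-5845478) had 223, 224, 258, 355 and 165 CPM in transformed 4 to 8, against 701, 628 and 627 CPM in parental 1 to 3. Every transformed library was lower than every parental one, by more than the spread within either group (log2 fold change -1.41, SE 0.20, edgeR adjusted p 0.0142). Malat1, a nuclear long noncoding RNA and the member next to Neat1, had 367, 407, 425, 733 and 311 CPM in transformed 4 to 8, against 526, 629 and 657 CPM in the parental libraries. Its groups overlapped through transformed 7, and it did not pass the test. Mark2 also fell, with 148, 150, 145, 149 and 139 CPM in transformed 4 to 8, against 196, 213 and 214 CPM in the parental libraries. Mark2 encodes a kinase of microtubule-associated proteins and not a splicing factor. The remaining 2 that fell were Hnrnpul2, an RNA-binding protein gene, and Cpsf7, a subunit of the 3′-end cleavage machinery. The spliceosomal genes Sf1 and Sf3b2 did not pass the test. Sf1, the branch point binding protein, was at 508 ± 12.7 CPM in the transformed libraries (SD, n = 5) and 526 ± 25.4 CPM in the parental ones (SD, n = 3), and Sf3b2 at 434 ± 65.8 CPM in the transformed libraries and 570 ± 8.41 CPM in the parental ones.

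In the list of NF-kB, cytokine signalling and immunity, 6 of 23 members fell, 0 rose and 13 had all 5 transformed libraries below the parental mean. Over all members 16.4% fell and 57.3% had all 5 below. The median log2 fold change was -0.34. Map4k2, a kinase upstream of stress-activated kinases, had 60.5, 49.2, 45.8, 49.6 and 34.5 CPM in transformed 4 to 8, against 107, 111 and 114 CPM in the parental libraries. Rasgrp2, an exchange factor of Rap GTPases, had 40.7, 24.5, 30.5, 38.3 and 23.7 CPM in transformed 4 to 8, against 75.7, 75.7 and 95.9 CPM in the parental libraries. Both pairs of groups were far apart, with log2 fold changes of -1.21 (SE 0.15) for Map4k2 and -1.39 (SE 0.19) for Rasgrp2. Ifit2, an interferon-induced RNA-binding protein gene, also fell, with 24.7 ± 2.25 CPM in the transformed libraries and 35.1 ± 3.68 CPM in the parental ones. The other members that fell were Dock8, Lpxn and Tcirg1, a subunit of the vacuolar proton pump.

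Jak2 (chr19:29251828-29313080) had 132, 81.7, 90.3, 127 and 93.4 CPM in transformed 4 to 8, against 132, 128 and 138 CPM in parental 1 to 3. Transformed 4 and 7 were at or near the parental level and the other transformed libraries below it. Jak2 did not pass the test, with a log2 fold change of -0.34 (SE 0.16). The edgeR adjusted p was 0.258 with all libraries. Without transformed 4 and 7 the log2 fold change was -0.59. Those 2 libraries lay nearest the parental level and their omission was chosen after seeing the data. A fit without them is therefore no test of a fall. Rela, a subunit of NF-kB, had 95.9 ± 7.39 CPM in the transformed libraries and 116 ± 3.45 CPM in the parental ones, with the groups apart and the test not passed. Chuk, the gene of the alpha kinase subunit upstream of NF-kB, had 96.01, 99.3, 117, 210 and 113 CPM in transformed 4 to 8, against 125, 118 and 111 CPM in the parental libraries. Apart from transformed 7, its transformed libraries reached from below the parental range into it.

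Among other genes of the same list, Cd274, which encodes the checkpoint ligand PD-L1, had 233, 99.1, 94.04, 170 and 88.4 CPM in transformed 4 to 8, against 126, 88.6 and 84.3 CPM in the parental libraries. Transformed 4 and 7 were above all parental libraries and the other 3 within their range. Fas, a death receptor gene, was at 17.3 ± 3.36 CPM in the transformed libraries and 26.7 ± 6.04 CPM in the parental ones. Ifit1 was low and scattered, at 4.67 ± 3.32 CPM in the transformed libraries and 3.38 ± 1.75 CPM in the parental ones. None of these 3 passed the test. Ifit3, with a mean of 0.383 CPM, was below the level for membership.

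In the list of metabolism and mitochondria, 2 of 38 members fell, 0 rose and 26 had all 5 transformed libraries below the parental mean. The median log2 fold change was -0.41. For this list and the next, the shares over all members were 16.4% that fell, 0.449% that rose and 57.3% with all 5 below. The 2 metabolism members that fell were Cox15 and Bad. Cox15, which acts in heme A synthesis, was at 63.0 ± 5.91 CPM in the transformed libraries and 92.1 ± 3.80 CPM in the parental ones. Bad, whose product promotes apoptosis at mitochondria, was at 18.1 ± 3.21 CPM in the transformed libraries and 33.6 ± 2.51 CPM in the parental ones. In the list of trafficking, lysosome and cytoskeleton, 7 of 25 members fell, 1 rose and 18 had all 5 transformed libraries below the parental mean, with a median of -0.45. Vps51, a subunit of tethering complexes at the Golgi, was at 25.7 ± 2.30 CPM in the transformed libraries and 38.6 ± 0.667 CPM in the parental ones. Add3, an adducin of the membrane skeleton, was at 178 ± 23.6 CPM in the transformed libraries and 308 ± 27.7 CPM in the parental ones. Stx5a, Lpxn, Pacs1, Atl3 and Rtn3 fell as well. The 311 members in none of the 5 lists had a median log2 fold change of -0.32, so the lists bracket the value of the chromosome as a whole.

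The most abundant members showed the shift at different strengths. Cfl1, the gene of the actin-severing protein cofilin, had 1406, 1637, 1445, 943 and 1649 CPM in transformed 4 to 8, against 1757, 1913 and 1899 CPM in the parental libraries. Ddb1, an adaptor of a ubiquitin ligase, was at 798 ± 142 CPM in the transformed libraries and 1079 ± 31.6 CPM in the parental ones, and Eef1g, a translation elongation factor gene, at 1254 ± 156 CPM in the transformed libraries and 1519 ± 31.4 CPM in the parental ones. Scd2, a fatty acid desaturase gene, had 1044, 1087, 1056, 372 and 1156 CPM in transformed 4 to 8, against 1313, 1297 and 1269 CPM in the parental libraries. In Cfl1, Ddb1 and Scd2 all transformed libraries were below all parental ones, while for Eef1g transformed 4 reached into the parental range, and none of the 4 passed the test. Eif3a, a subunit of an initiation factor, did not lie lower: it had 921 ± 106 CPM in the transformed libraries and 886 ± 22.4 CPM in the parental ones.

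The largest differences among members of at least 5 CPM with groups apart went well beyond the median shift. Cpt1a, which imports fatty acids into mitochondria, had 54.7, 54.3, 49.1, 14.96 and 54.1 CPM in transformed 4 to 8, against 133, 107 and 148 CPM in parental 1 to 3. Its log2 fold change of -1.51 (SE 0.36) did not pass the test. Gcnt1, a glycosyltransferase gene of O-glycan branching (chr19:17326141-17372844), had 41.7, 59.8, 63.0, 79.7 and 76.5 CPM in transformed 4 to 8, against 172, 162 and 175 CPM in the parental libraries. It fell with a log2 fold change of -1.41 (SE 0.18, edgeR adjusted p 0.0105). Tcirg1 at -0.96 and Cyp2c23, a cytochrome P450 gene, at -1.10 also fell. Nanos1 at -1.17, Tm7sf2 at -1.04 and Rom1 at -0.94 did not pass the test. Tm7sf2, a sterol reductase gene, overlaps Vps51 on the same strand, so part of their reads may be shared.

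The genes that escaped the shift were taken as those at or above the parental mean in each of the 5 transformed libraries. They numbered 16, or 3.60% of the members, where 17.1% of all 14000 genes met the same condition. Of the 16, 8 are annotated as protein coding, 7 as processed pseudogenes and 1 as another pseudogene. Their values chose them and are given without a test. A near-identical copy on another chromosome was present for 10 of the 16. Those without one included Fth1, Slc15a3, Ms4a6d, Rrp12 and Nfkb2, of which Slc15a3, Ms4a6d and Rrp12 are named because of their values.

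Fth1 (chr19:9980598-9985098), the most abundant escape gene, had 1173, 1373, 1610, 3019 and 2471 CPM in transformed 4 to 8, against 1376, 1018 and 899 CPM in parental 1 to 3. Transformed 7 and 8 were the highest, and transformed 4 and 5 were within the parental range. The genes on both sides lay low: Incenp had a mean difference of -0.50 and Fads3, a member of the fatty acid desaturase family, one of -0.78. Rrp12, a factor of ribosome biogenesis, had 63.9, 107, 82.9, 100.4 and 96.9 CPM in transformed 4 to 8, against 53.9, 77.8 and 52.9 CPM in the parental libraries. It lies between Frat2 at -0.95 and Pgam1 at -0.44. Nfkb2, the gene of the p100 precursor of the p52 subunit of NF-kB, had 190, 174, 211, 257 and 185 CPM in transformed 4 to 8, against 203, 161 and 148 CPM in the parental libraries. Its groups overlapped, and its neighbours Gbf1 and Psd had mean differences of -0.21 and -0.32.

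Slc15a3, a lysosomal peptide and histidine transporter gene, had 12.4, 17.5, 21.7, 69.0 and 30.4 CPM in transformed 4 to 8, against 20.7, 7.45 and 7.69 CPM in the parental libraries. Transformed 7 was by far its highest library, and parental 1 was within the transformed range. Ms4a6d, of the membrane-spanning 4A family, had 6.24, 4.11, 4.20, 3.91 and 3.11 CPM in transformed 4 to 8, against 1.56, 2.52 and 4.12 CPM in the parental libraries. The transformed and parental libraries overlapped in each of these 5 genes. Most members next to the 16 escape genes lay low, though somewhat less so than members at large. Of 31 distinct neighbours, 23 had a negative mean difference, against 366 of all 445 members. The median was -0.28 over the neighbours and -0.35 over all members.

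**Figure D3:**
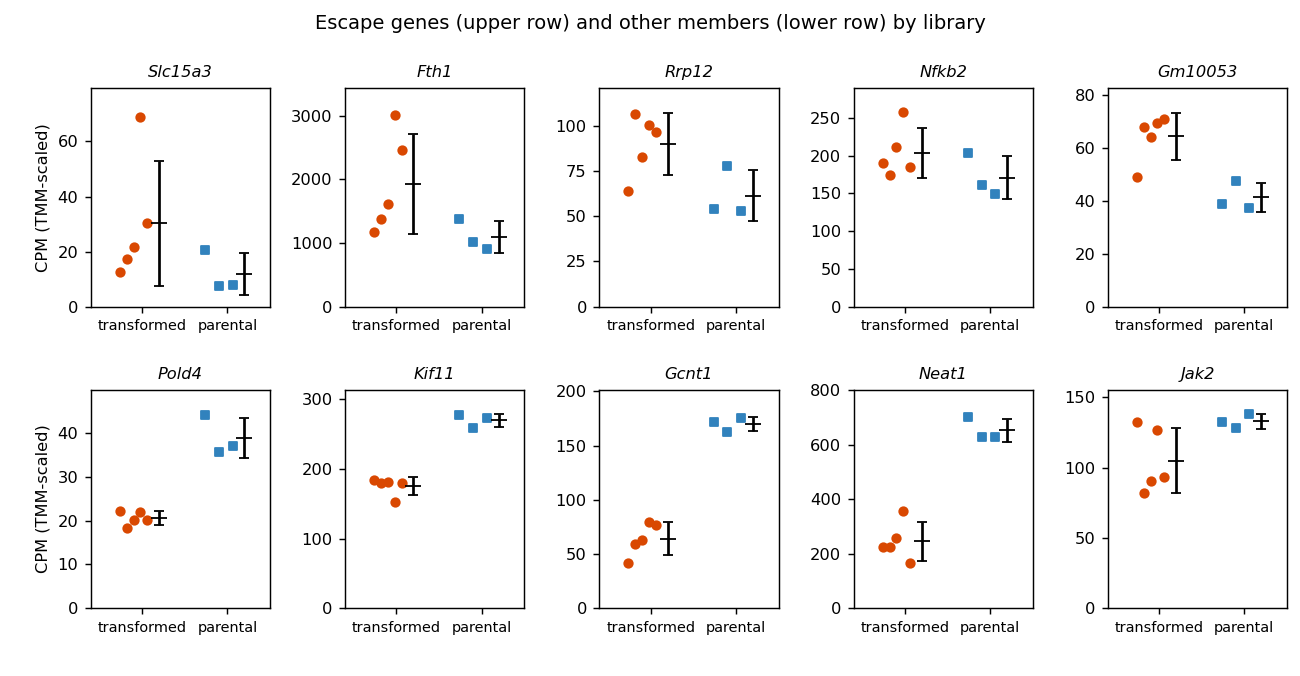
CPM (scaled with TMM factors) by library for 5 escape genes in the upper row and 5 members that were not escape genes in the lower row, with transformed libraries (n = 5) left of parental ones (n = 3) and bars for the mean ± SD. Gm10053 lies higher in all 5 transformed libraries than in any parental one, Slc15a3, Fth1, Rrp12 and Nfkb2 overlap, and Pold4, Kif11, Gcnt1 and Neat1 lie lower without overlap.

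The 35 members with a near-identical copy on another chromosome had a median mean difference of 0.073, against -0.38 in the 410 members without one, a ratio of 1.05 against 0.766. By library their medians were 0.062, 0.12, 0.062, -0.0012 and 0.19 in transformed 4 to 8, against -0.031, 0.0084 and 0.0062 in parental 1 to 3. Among them 3 had all 5 transformed libraries below the parental mean, against 252 of the 410 others. Of the 35, 28 were processed pseudogenes and 5 were annotated as protein coding. The remaining 2 were Snora57 and Gm5512. The 73 members that fell were all among the 410 without a copy.

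The mean difference of the member and that of its most abundant copy had Pearson's r of 0.973 and Spearman's rho of 0.953 across 35 pairs, which share libraries and, wherever the sequences are the same, may share reads. The sign was the same in 32 of the 35 pairs, and differed for Gm5512, Gm5510 and Rpl31-ps20, which are named for that reason. The median absolute gap between the 2 was 0.031 log2, the largest was 0.19, and 32 pairs were within 0.1. The copy was the more abundant of the 2 in 33 of 35 pairs, with a median ratio of 8.49. Gm10053 had 49.2, 68.2, 64.2, 69.7 and 71.2 CPM in transformed 4 to 8, against 39.0, 47.6 and 37.4 CPM in the parental libraries. Cycs on chromosome 6 had 79.0, 108, 105, 115 and 116 CPM in transformed 4 to 8, against 64.3, 78.2 and 61.9 CPM in the parental libraries. Gm10053 was 1 of the 2 members that rose in the fit over all genes. The mean differences were 0.64 for Gm10053 and 0.61 for Cycs, with transformed 4 the lowest transformed library and parental 2 the highest parental one in both.

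Pcna-ps2 lay low together with its copy. It had 181, 119, 124, 106 and 127 CPM in transformed 4 to 8, against 177, 163 and 158 CPM in parental 1 to 3. Pcna had 436, 295, 305, 245 and 299 CPM in transformed 4 to 8, against 416, 399 and 380 CPM in the parental libraries. Transformed 4 stood above the other transformed libraries in both, as the median of chromosome 2 did. Rpl13a-ps1 had 15.8, 15.8, 16.3, 14.9 and 17.02 CPM in transformed 4 to 8, against 14.2, 13.8 and 13.2 CPM in the parental libraries, with a mean difference of 0.21, and Rpl13a one of 0.27. Rpl10-ps6 had a mean difference of 0.17 and Rpl10 on chromosome X one of 0.13. It lies within the span of Ide, an insulin-degrading protease gene at 0.27, and next to Kif11 at -0.62. Gm10136, whose most abundant copy is also a pseudogene, was at 0.19. It lies within the span of Cdc37l1 at -0.48 and next to Ak3 at -0.67, both of which fell.

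**Figure D4:**
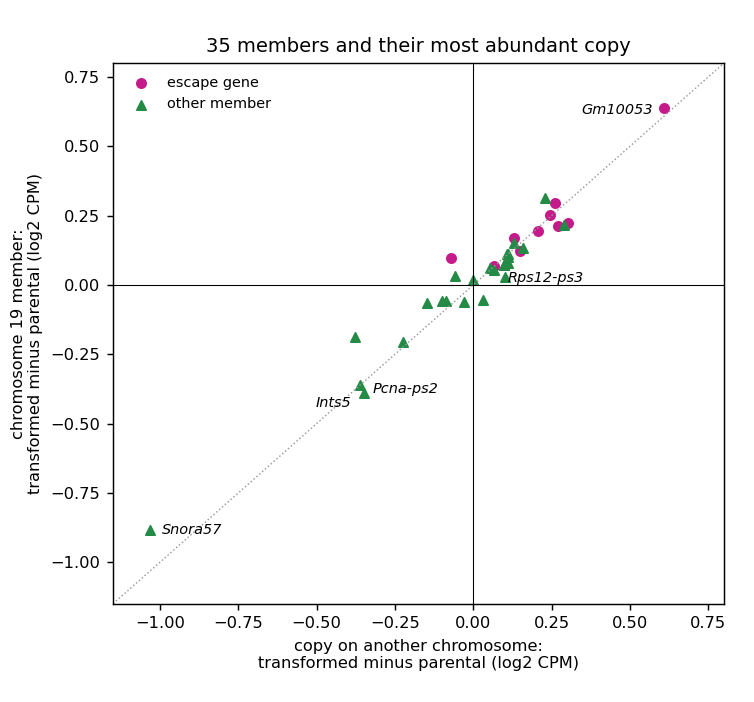
Mean difference (transformed minus parental, log2 CPM) of the 35 chromosome 19 members with a near-identical copy, on the vertical axis, against that of their most abundant copy on another chromosome, on the horizontal axis. Points lie along the dotted line of equality, from Snora57 at the lower left to Gm10053 at the upper right, with 32 of 35 within 0.1 of it; the 10 escape genes are circles.

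Gene type divided the members in much the same way, and 28 of the 35 processed pseudogenes were among the members with a copy. The 390 protein-coding members had a median of -0.38 and the 18 noncoding RNAs one of -0.61. The 35 processed pseudogenes had a median of 0.078. The 7 of them without a copy at the stated identity had one of 0.099, with quartiles of -0.25 and 0.12. By library the medians of these 7 were mixed, at 0.051, -0.14, -0.084, -0.23 and 0.15 in transformed 4 to 8. They were 0.049, -0.068 and -0.019 in parental 1 to 3. Of the 7, 1 fell and 0 were escape genes. Tertiles of exonic length had medians of -0.29, -0.39 and -0.39 from the shortest to the longest, and 11 of the 16 escape genes were in the shortest. Expression level made little difference, with medians of -0.40, -0.34 and -0.33 in the lowest, middle and highest tertile of mean CPM. The strand of the gene made none to speak of, at -0.35 for minus and -0.36 for plus. By transcript GC the medians were -0.29, -0.34 and -0.41 from the lowest to the highest tertile, and -0.33, -0.35 and -0.34 with the GC trend of the other chromosomes removed. In transformed 7 the same tertiles stood at -0.21, -0.37 and -0.58, and in transformed 4 at -0.32, -0.28 and -0.29.

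Just inside the level for membership were 1700018L02Rik at 1.04 CPM and Gm21992 at 1.05 CPM, and just outside it Tmem132a at 0.975 CPM and Gm16244 at 0.957 CPM. 1700018L02Rik averaged 0.845 CPM in the transformed libraries and 1.38 CPM in the parental ones, and Gm21992 averaged 0.940 CPM in the transformed libraries and 1.24 CPM in the parental ones. Gm16244 averaged 0.759 CPM in the transformed libraries and 1.29 CPM in the parental ones. Tmem132a averaged 1.24 CPM in the transformed libraries and 0.531 CPM in the parental ones. It overlaps the escape gene Slc15a3, and transformed 7, at 2.80 CPM, was its highest library as well.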

How the data were processed

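The authors deposited 1 table of raw read counts per Ensembl gene, 53465 genes in 8 libraries, not normalised. Per the submitters' processing notes, STAR 2.5.3a and featureCounts 1.5.3 were used with the builds mm10 and GRCm38.p5. Per the labels' protocols, an Illumina TruSeq RNA kit was used on polyA RNA. Strand setting, annotation release and treatment of multi-mapping reads are not stated there, so counts of paralogs, pseudogenes and overlapping or antisense genes are uncertain. The table had 0 columns outside the 8 libraries.

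Symbols, chromosomes, gene types, starts and transcripts came from GENCODE M21 (GRCm38). It lacked 105 of the table's genes, 54 of them with counts, which held 0.0212% of all counts. CPM values were scaled with TMM factors (edgeR 4.0.16, R 4.3.3). A difference is the log2 CPM of a library (prior count 2) from which the parental mean was subtracted. It understates differences of genes with few counts. Each parental library is part of that mean, so its own difference is understated too. Against the mean of the remaining parental libraries, the medians over members were -0.035, 0.013 and 0.013 in parental 1 to 3. Genes were tested over all 17733 that passed filterByExpr, transformed over parental, with edgeR's robust quasi-likelihood F test, 2-sided, with Benjamini-Hochberg adjustment and a threshold of 0.05. The test was checked on simulated counts. Fold changes are given with their standard error (SE). A loess trend (span 0.5) on transcript GC of the other chromosomes gave the GC-corrected values. Near-identical copies were found with blastn 2.17.0 (megablast), using the longest transcript of each member against transcripts of other chromosomes, at 95% identity over 80% of the length. The copy shown is the one with the highest mean CPM.

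The members, the 5 lists by role, the marker lists and the tests were chosen with earlier results of these data known. Some listed symbols lie on other chromosomes: 161 of 175 were on chromosome 19 and 134 were members. Named genes were the 6 most abundant members, the 10 largest falls and up to 10 largest rises by fitted fold change among members of at least 5 CPM whose groups do not overlap (predicted genes left out), 15 genes of known interest, the end genes, the 4 genes next to the level for membership, and from each list the 2 with the smallest p. Other genes are named because of their values. Lanes come from a tag in the labels' descriptions: lane 6 holds transformed 5 and 8 and parental 1 and 3, and lane 7 the other 4 libraries. Some of the genes this rule names are not reported here.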

Additional observations from a re-analysis of the deposited data

Results flagged for a closer look

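The 5 transformed libraries were examined for a library that stands far from the rest in 64 groups of values. These were named genes and a few measures over all members. Such a library was found in 11 groups, all of them genes. The rule flags about 5% of groups by chance. Some genes were named for their values and all share the same libraries, so the 11 cannot be read against that 5%. In 9 of the 11 it was transformed 7. The library was the low one for Bad at 12.5 CPM (other transformed libraries 18.9 to 20.9), Cpt1a at 14.96 CPM (49.1 to 54.7), Ddb1 at 556.9 CPM (812 to 904), Kif11 at 152.3 CPM (180 to 185) and Scd2 at 372 CPM (1044 to 1156). It was the high one for Chuk at 210.1 CPM (96.01 to 117), Malat1 at 733 CPM (311 to 425), Rela at 109 CPM (89.8 to 94.7) and Slc1a1 at 10.53 CPM (0.0404 to 0.462).

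Slc1a1, a glutamate transporter gene at chr19:28835049-28913960, had 0.137, 0.0200 and 0.0657 CPM in parental 1 to 3, so it entered the members through transformed 7 alone. In the same library the difference ran with GC content, as given in the report; its part in these values was not tested. Pcna-ps2 stood apart in transformed 4, at 181 CPM against 106 to 127 in the other transformed libraries, as did its near-identical copy Pcna at 436 CPM against 245 to 305. Gm32256, a pseudogene with near-identical copies, stood apart in transformed 8 at 18.8 CPM against 20.04 to 20.5, a small absolute gap.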

How the results depend on the processing

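The median shift of chromosome 19 members stayed between -0.36 and -0.33 when 1 library was left out and was -0.29 within lane 6. The escape genes, 16 with all libraries, numbered 14 to 35 with 1 library left out, and the highest count came without transformed 4. They numbered 8 among protein-coding members, 6 without near-identical copies, 77 within lane 6, 28 within lane 7 and 51 without transformed 4 and 7. In the lanes, without transformed 4 and 7, and whenever 1 transformed library is left out, fewer libraries have to meet the condition. The share of 5 Mb blocks with all 5 transformed medians below 0 was 92.3%, against 84.6% with members of at least 10 CPM and 100% in 10 Mb blocks, in blocks of 40 consecutive members and with the GC trend removed.

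The calls depended far more on the libraries. Over all genes 533 were called, and 26 to 2728 with 1 library left out. Members called lower then ranged from 1 to 168, and members called higher from 0 to 5. DESeq2 1.42.0 called 1818 genes and 159 members lower. With lane as a covariate 94 genes were called, 11 members lower and 0 higher, against 208 lower at an unadjusted p under 0.05. Lane 6 alone gave 3565 genes, 173 members lower and 13 higher, and leaving out transformed 4 and 7 gave 5042 genes, 246 members lower and 12 higher. Higher calls made up 30.2% of all calls in the reported fit, 44.2% with DESeq2, 15.96% with lane as a covariate and 47.2% in lane 6. The cause of these differences was not tested.

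Sign changes were seen for Chuk, at -0.15 without transformed 7 (range -0.15 to 0.19 with 1 library left out) and -0.10 without transformed 4 and 7, for Eif3a, at -0.0065 without transformed 7 (highest 0.11), and for Cd274, at -0.089 without transformed 4 and 7, none of them called in any of these fits. Of 12 alternative fits, Pold4 was called lower in 12, Map4k2 in 10, Gcnt1 and Rasgrp2 in 9, Kif11 and Mark2 in 8 and Neat1 in 7. Add3, Ak3, Bad, Cdc37l1, Cox15, Cyp2c23, Gm10053, Ifit2, Incenp, Tcirg1 and Vps51, which passed in the reported fit, were called in 5 of the 12. Members with a near-identical copy had medians of 0.072 at 90% identity and 0.10 at 99%. No paired analysis was possible because the groups share no replicate numbers. With 3 parental libraries, small shifts of single genes are at the limit of what these data resolve. The alternatives on GC content, near-identical copies and the paired omission of transformed 4 and 7 were chosen after seeing the data.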

Other observations

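The genes in this part of the text were picked because their values stand out. Emx2, a homeobox gene at chr19:59458372-59465357, had 0.0808, 1.11, 1.69, 1.17 and 0.782 CPM in transformed 4 to 8, against 5.28, 5.11 and 2.37 CPM in parental 1 to 3. Its antisense neighbour Emx2os had 0.141, 0.714, 1.01, 0.285 and 0.465 CPM in transformed 4 to 8, against 2.46, 2.48 and 1.82 CPM in the parental libraries. Both lay lower in every transformed library, neither passed the test, and their reads cannot be told apart without strand.

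Papss2, which makes the sulfate donor of sulfotransferases, had 67.2, 6.31, 9.66, 8.11 and 9.37 CPM in transformed 4 to 8, against 53.8, 36.1 and 75.3 CPM in the parental libraries. Transformed 4 was within the parental range, and the other 4 were far below it. The long noncoding RNA E330013P04Rik had 34.6, 0.476, 0.198, 0.228 and 0.148 CPM in transformed 4 to 8, against 3.83, 6.41 and 9.84 CPM in the parental libraries. Anxa1, the gene of a phospholipid-binding annexin, had 12.1, 0.139, 1.01, 0.143 and 0.0846 CPM in transformed 4 to 8, against 1.49, 5.89 and 1.25 CPM in the parental libraries. In E330013P04Rik and Anxa1 transformed 4 was above every parental library while the other transformed libraries were below them.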
